A study of Mus musculus with 19 samples.

Results

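The regions described here are 1173 ATAC-seq peaks whose accessibility was lower with tumor necrosis factor (TNF) after both 24 h and 72 h of astrocytic differentiation. ATAC-seq uses a transposase that cuts DNA where chromatin is open, so a region with more reads is more accessible. The members were chosen by measured accessibility, and a peak was kept when its mean with TNF was at most 0.6 times the untreated mean at 24 h and again at 72 h, and when both untreated means were at least 50 normalised reads. The 1173 peaks were 1.3% of the 90154 peaks in the table and 2.03% of the 57735 peaks whose untreated means reached the minimum at both times. These 57735 peaks, the peaks that could have been chosen, serve below as the comparison set. Because the rule used the 12 libraries at 24 h and 72 h, every value of the members in those libraries is given as a description, without a test. Counts of calls that use those libraries, from a fit over all peaks, are a description too.

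Neurospheres (NSPs) were grown from neural stem cells of the ventricular zone of wild-type C57BL/6J mouse embryos at embryonic day 14, and were kept proliferating with EGF. They were then moved to serum medium without EGF, where they differentiate into astrocytes, either untreated or with TNF at 50 ng/ml. Of the 19 libraries, 3 were from NSPs, 4 from untreated cells at 1 week, and 3 each from untreated and from treated cells at 24 h and at 72 h. The cells were primary cultures of 1 wild-type mouse strain, TNF was not given to the 1 week cells, and the labels do not say whether replicates came from separate cultures or embryos, so p-values measure the spread between these libraries.

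TNF is an inflammatory cytokine that binds receptors on neural and glial cells and releases the transcription factor NF-κB into the nucleus, where it acts at promoters and enhancers of inflammatory genes. Enhancers are regulatory elements, often far from the gene they act on, that become accessible when transcription factors displace nucleosomes. In the gliogenic lineage, factors of the NFI and SOX families are known to act at such elements. A region can lose accessibility in a treated culture when fewer factors occupy it or when fewer cells of the kind that opens it are present, and in bulk libraries these cannot be told apart.

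A few members lay at annotated transcription starts, of coding or noncoding genes, and the DNA under them could be read from RefSeq promoter windows on assembly GRCm38.p6. Of 15 member peaks that overlapped a window, 7 held the whole stretch of 250 bases before a start, 7 held a part of 56 to 242 bases and 1 held under 30 bases. The sequences of 4 of the whole windows are printed 5′ to 3′ on the strand of the gene. These belong to the members with a whole window at starts of protein-coding genes, whose accessibility is given below. Capitals mark every match to a list of 20 motifs, searched on both strands. The windows are chr19:20492333-20492582 on the plus strand for Aldh1a1, chr11:3722228-3722477 on the minus strand for Osbp2, chr15:103565082-103565331 on the minus strand for Glycam1 and chrX:140548572-140548821 on the minus strand for Tsc22d3.
Aldh1a1: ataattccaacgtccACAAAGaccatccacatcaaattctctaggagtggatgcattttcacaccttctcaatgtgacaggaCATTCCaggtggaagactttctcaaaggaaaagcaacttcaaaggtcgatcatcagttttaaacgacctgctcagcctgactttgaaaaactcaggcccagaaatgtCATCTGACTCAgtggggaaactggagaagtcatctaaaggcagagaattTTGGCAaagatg
Osbp2: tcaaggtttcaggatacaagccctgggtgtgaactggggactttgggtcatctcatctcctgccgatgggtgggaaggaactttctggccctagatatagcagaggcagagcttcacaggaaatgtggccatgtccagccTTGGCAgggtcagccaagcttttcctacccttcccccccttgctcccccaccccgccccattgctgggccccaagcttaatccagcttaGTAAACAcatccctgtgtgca
Glycam1: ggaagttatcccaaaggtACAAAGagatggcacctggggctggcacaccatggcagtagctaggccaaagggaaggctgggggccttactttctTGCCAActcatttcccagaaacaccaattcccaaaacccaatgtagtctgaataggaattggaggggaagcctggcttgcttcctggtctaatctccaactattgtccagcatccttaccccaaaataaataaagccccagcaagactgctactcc
Tsc22d3: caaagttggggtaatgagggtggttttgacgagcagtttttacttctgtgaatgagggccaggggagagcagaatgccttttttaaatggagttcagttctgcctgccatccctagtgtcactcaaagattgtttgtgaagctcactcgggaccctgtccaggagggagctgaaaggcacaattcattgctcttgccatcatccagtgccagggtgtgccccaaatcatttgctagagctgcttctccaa

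The letters TTGGCA, 1 arm of the palindrome that NFI factors bind, were found in 6 of the 7 whole windows, those before Aldh1a1, Osbp2, Glycam1, Gm39605, Gm46743 and Gm34474, and not before Tsc22d3. They were found in 12.3% of all 32817 promoter windows and in 10.4% of the 7930 windows that lay wholly inside a peak of the comparison set. None of the 7 peaks with part of a window held them, so the share over both kinds of window was lower than over whole windows alone. The parts are shorter than whole windows and leave less room for a match. The NF-κB letters GGGANTTTC and GGGANTTCC were in 0 of the 7 whole windows and in 2.34% of all windows. The Aldh1a1 window also held ACAAAG, the letters of SOX factors, which stood in 3 of the 7 windows and in 16.5% of all. In the same window GGAATG of TEAD factors appeared as its reverse complement, and CATCTG, an E-box, overlapped the letters TGANTCA of AP-1. GGAATG was in 2 of the 7 windows and in 12.6% of all, CATCTG in 2 and in 14.5%, and TGANTCA in 1 and in 6.75%. The Osbp2 window held TGTTTAC of FOX factors on the opposite strand, which was in 1 of the 7 windows and in 3.16% of all. The median G and C content was 49.6% over the 7 whole windows, 52.4% over all windows and 62% over the windows inside the comparison set. The other motifs searched were in 0 of the 7 whole windows. They were ACAATG of SOX factors (10.7% of all windows), TGACGTCA of CREB (1.55%), TTCCNGGAA of STAT (0.914%), TGTGGTT of RUNX (4.39%), the E-box CAGCTG (13%), TTGCGCAA and TTGCATCA of C/EBP (0.165% and 0.792%), GTTGCCATG of RFX (0.64%), TAATTA of homeodomain factors (4.85%), CCGGAAG of ETS (6.9%), ATGCAAAT of POU (1.6%), the full NFI palindrome (0.0366%) and the CArG box of SRF (1.47%). A match to letters is a description of the sequence and says nothing about binding. The sequence of the other members was not analysed here.

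Accessibility at the start of Aldh1a1, which encodes a dehydrogenase that makes retinoic acid, was 276, 295 and 318 normalised reads in the untreated libraries at 24 h and 172, 136 and 156 with TNF. At 72 h it was 333, 331 and 261 without TNF and 148, 117 and 121 with TNF. The untreated and treated libraries did not overlap at either time. At the start of Osbp2, an oxysterol-binding protein gene, the levels were low throughout, with 42.8 to 64.0 at 24 h, 30.1 to 36.6 with TNF, 59.9 to 73.3 at 72 h and 36.0 to 38.4 with TNF. The Glycam1 peak had 29.5 to 83.8 at 24 h against 18.3 to 25.6 with TNF, and 64.3 to 92.1 at 72 h against 16.1 to 54.0 with TNF. The Tsc22d3 peak, at a gene known for its induction by glucocorticoids, had 44.4 to 61.6 at 24 h and at most 36.3 with TNF, and 58.6 to 96.5 at 72 h and 20.7 to 42.0 with TNF. In these 3 weaker peaks, too, no TNF library reached the lowest untreated library of its time. The rule, which used these libraries, favours such a gap. In the fit over all peaks, the Osbp2 peak was not called lower with TNF at either time, nor the Tsc22d3 peak at 24 h.

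Over all 1173 members, the median level was 112 normalised reads at 24 h and 56.5 with TNF, and 113 at 72 h and 50.9 with TNF. The medians of the comparison set were 145 and 147 at 24 h, and 146 and 147 at 72 h. Within the untreated groups the member medians of single libraries were 117, 118 and 108 at 24 h, and 117, 110 and 113 at 72 h. With TNF they were 59.2, 58.2 and 56.1 at 24 h, and 50.1, 53.2 and 50.4 at 72 h. The fewest reads behind a member in a TNF library were 3, against 15 in an untreated library. The word closed, as used for these peaks, means less open by the ratios of the rule. No peak in the table was without reads in any library, so reads at every member in the treated libraries were given by the table. Whether the lowest levels lay above background was not tested.

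**Figure D1:**
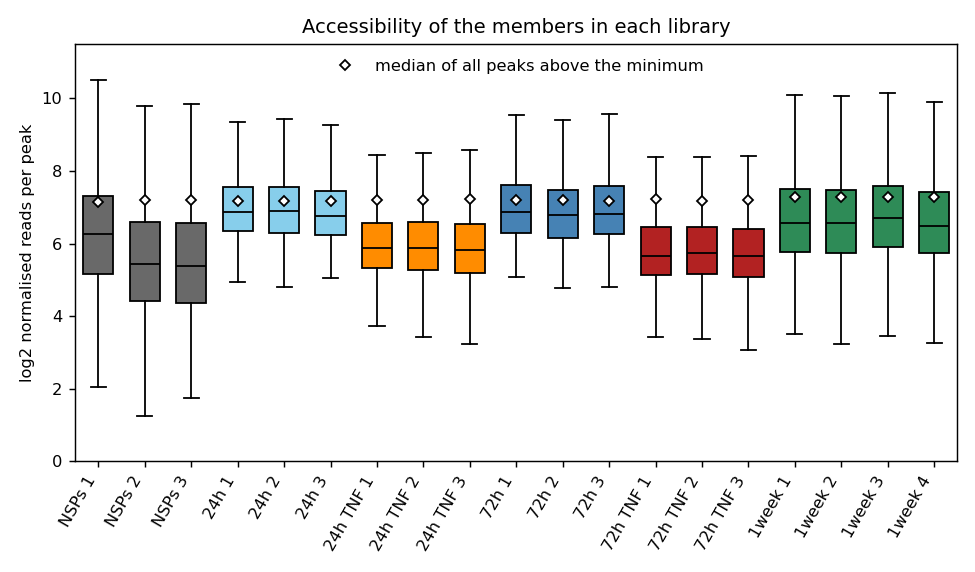
Boxes show the log2 normalised reads of the 1173 members in each of the 19 libraries (centre line, median; box, quartiles; whiskers, the farthest members within 1.5 times the box height), and diamonds the median of the 57735 peaks of the comparison set. At 24 h and 72 h the members' medians are 108 to 118 reads in the untreated libraries and 50.1 to 59.2 reads in the TNF libraries, while the diamonds stay level, and NSP replicate 1 lies above the other NSP libraries.

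The ratio of the TNF mean to the untreated mean had a median of 0.520 at 24 h and ranged from 0.201 to 0.600, and 473 members (40.3%) were at 0.5 or below. At 72 h the median was 0.478, the range was 0.130 to 0.600, and 677 members (57.7%) were at 0.5 or below. The ratio was lower at 72 h than at 24 h for 784 members (66.8%). The median ratios of the comparison set were 0.968 and 1.02. The rule cut through a continuous distribution. The member with the highest ratio at 24 h, within Frem2, had means of 78.9 without and 47.3 with TNF, and the closest peak left out at 24 h, near Psd2, had 85.8 and 51.5. At 72 h the closest peak left out, near Grm4, had 80.1 and 48.1. The member with the lowest untreated mean, within Frmpd4, had 50.1 at 72 h, and the closest peak below the minimum, near Pdgfc, had 49.8 at 24 h.

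**Figure D2:**
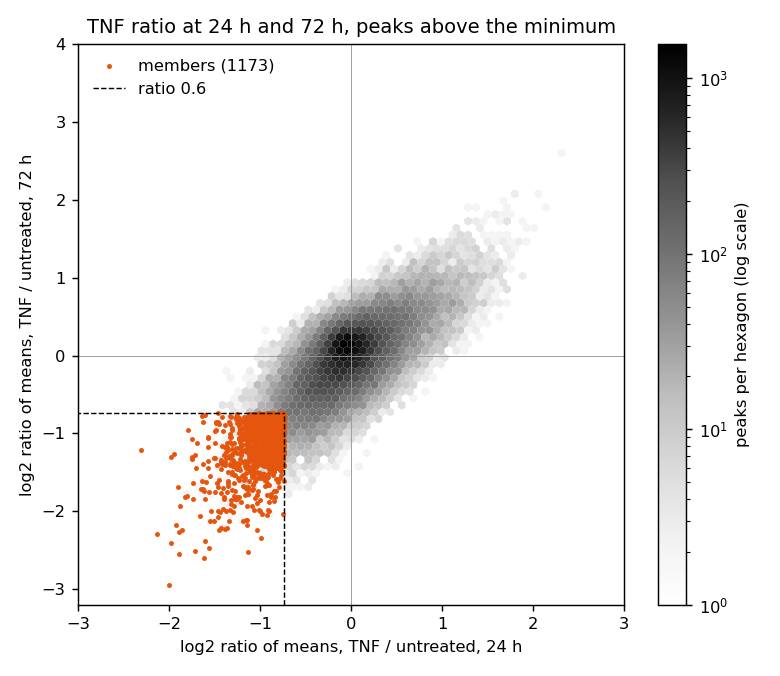
Each member is an orange point at its log2 ratio of TNF to untreated mean at 24 h (x axis) and 72 h (y axis), and grey hexagons count the peaks of the comparison set on a log scale. Dashed lines mark the ratio of 0.6, and the members form the lower left edge of a continuous cloud rather than a separate group.

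Every TNF library lay below every untreated library for 1118 members (95.3%) at 24 h, where this held for 14.4% of the 88919 peaks tested and 16.6% of the comparison set. At 72 h it held for 1133 members (96.6%), against 15.3% and 17.6%. It held at both times for 1081 members (92.2%), against 6.45% and 8.48%. In the fit across all peaks (limma-trend, adjusted p under 0.05), 867 members were called lower with TNF at 24 h, as were 3.53% of all peaks tested and 4.79% of the comparison set. At 72 h, 979 members were called lower, as were 5.55% of all peaks tested and 7.23% of the comparison set, and 797 members were called at both times, against 1.86%. The rule used these same contrasts, so nothing is read from the counts. Leaving out 1 library lowered the count at 24 h to 560 (without 24 h replicate 1) or 561 (without 24 h TNF replicate 3).

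The 6 members with the lowest ratios over both times lay at genes of unlike function. The lowest was inside Gabbr2, which encodes a subunit of the metabotropic GABA receptor (chr4:46710033-46710533, mm10 as in all peak positions). It had 199, 224.2 and 156 reads at 24 h and 54.8, 61.4 and 28.0 with TNF. At 72 h it had 273, 189 and 291 without and 23.2, 45.8 and 28.8 with TNF. The NSP libraries held 32.7, 26.9 and 18.6, so the treated cells stood near the level of the progenitors, and the 1 week libraries held 224.1 to 277.

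The peak 9.86 kb from Steap3, a ferrireductase gene of iron uptake, had 16.1 ± 10.4 (SD, n = 3) in NSPs, 114 ± 15.8 at 24 h, 257 ± 19.9 at 72 h and 410 ± 23.5 (n = 4) at 1 week. With TNF it was 29.1 ± 9.79 at 24 h and 48.6 ± 6.36 at 72 h. Peaks near Kcne2, a potassium channel subunit gene, and 1700123K08Rik and inside Pank2, of coenzyme A synthesis, had untreated means of 78.2 to 139.8 at the 2 times and TNF means of 18.6 to 33.8, and unlike Steap3 they were not higher at 1 week than at 72 h, with 81.1 to 101. The peak inside Capn2, a calpain gene, differed from them. Its level was 97.3 ± 32.2 at 24 h and 63.0 ± 15.3 at 72 h, 31.7 ± 3.99 and 10.4 ± 6.37 with TNF, and also low at 1 week, at 26.1 ± 15.8.

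Members were mostly moderate in level. Their share of the comparison set was 2.53% among peaks with a mean untreated level of 50 to 100 reads, 2.61% at 100 to 200, 1.59% at 200 to 400, 0.868% at 400 to 800 and 0.210% at 800 and above. The strongest member was inside Jakmip1, the gene of a microtubule-associated protein (chr5:37035134-37035634). It had 1514, 1522 and 1065 reads at 24 h and 676, 814 and 626 with TNF, and 1481, 1176 and 1403 at 72 h and 518, 591 and 589 with TNF. Others among the strongest were inside Camk2g, which encodes a calcium/calmodulin-dependent kinase subunit, inside Gm30733, near Clvs1 and near B3gnt2. Their means at 24 h ranged from 1120.4 to 1265 without and from 511 to 682 with TNF. The peak 136 kb from B3gnt2 was 160 ± 35.6 in NSPs, 1121 ± 93.0 at 24 h, 558 ± 37.2 at 72 h and 383 ± 49.0 at 1 week, and 511 ± 30.8 and 312 ± 20.9 with TNF.

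One library stood apart in the part of the data the rule did not use. The median over members was 77.1 in NSP replicate 1, against 42.9 and 41.9 in replicates 2 and 3. It was the highest NSP library at 875 members (74.6%), against 45.9% of the comparison set. At the peak inside Vcl it had 431 reads against 68.3 and 49.8, and inside Slc4a4 818 against 223 and 254, while at the peak inside Arpin it had 7.01 against 4.71 and 3.99. For this reason the calls against NSPs over all members, and the log2 differences of single members at 1 week, are followed by their values without this library. Reads in peaks were 28636739 to 39349111 in NSPs and 9640256 to 25165008 in the other groups, and intervals from these depths cover counting error only.

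In NSPs most members were less accessible than in untreated differentiating cells. The median over members was 57.7 in NSPs (42.3 without replicate 1), against 112 and 113 in untreated cells at 24 h and 72 h, whereas the comparison set had 147 in NSPs. The untreated mean exceeded the NSP mean at 979 members (83.5%) at 24 h and 906 (77.2%) at 72 h, against 43.8% and 46.5% of the comparison set. Without replicate 1 the shares were 89.2% and 84.7%, against 45.2% and 47.6%. In NSPs, 182 members (15.5%) were below 20 reads, against 3.43% of the comparison set. The rule favours peaks that are high in the untreated libraries at 24 h and 72 h and low with TNF. These same libraries enter the comparisons with NSPs, so the calls that follow only describe the members and are not a test over them.

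Called over all peaks, 763 members were higher at 24 h than in NSPs and 59 were lower, where 24.2% and 23% of all peaks tested, and 24.4% and 26.7% of the comparison set, were called. At 72 h, 746 were higher and 99 lower, against 28.3% and 30.9% of all peaks tested and 28.5% and 33% of the comparison set. Without NSP replicate 1 the counts were 868 and 53 at 24 h, against 25.2% and 23.7%, and 816 and 95 at 72 h, against 28.9% and 31.7%. The median log2 difference of the members was 1.12 at 24 h and 1.10 at 72 h, and 1.38 and 1.37 without replicate 1. With TNF the corresponding medians from NSPs were 0.12 at 24 h and −0.02 at 72 h, and 0.43 and 0.24 without replicate 1. With TNF at 24 h, 380 members were higher and 295 lower than NSPs, against 26.5% and 25.5% of all peaks tested and 25% and 29.7% of the comparison set. With TNF at 72 h, 364 were higher and 394 lower, against 29.1% and 30.9% of all peaks tested and 28.3% and 32.1% of the comparison set. Without NSP replicate 1 these counts were 508 and 238 at 24 h, against 26.9% and 25.1% of all peaks tested, and 465 and 319 at 72 h, against 29.6% and 30.7%.

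By these calls, 678 members (57.8%) opened from NSPs at both untreated times, against 20.7% of the comparison set. The rule favours this class, so the difference in share was not tested. Their median level was 30.4 in NSPs, 109 at 24 h, 123 at 72 h and 116 at 1 week, and 53.5 and 53.0 with TNF at 24 h and 72 h. The difference between NSPs and TNF-treated cells was a median of 27.3% of the untreated gain at 24 h (quartiles 9.54% and 39.1%) and 21.9% at 72 h (quartiles 2.93% and 35.2%). At 116 of these members at 24 h, and at 148 at 72 h, the level with TNF was below that in NSPs. With NSP replicates 2 and 3 as the base, the medians were 33.3% and 28.5%, and 48 and 80 members fell below NSPs. The rule holds each TNF mean to at most 0.6 times the untreated mean. Low shares of the gain, and levels below NSPs, were thus set in part by the choice of peaks and were not tested. Without replicate 1 the class held 785 members (66.9%, against 22.2% of the comparison set).

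A second group of 240 members (20.5%) was called neither higher nor lower than NSPs at either untreated time, against 29.9% of the comparison set. These were open in NSPs, at a median of 95.2, stayed at 101 and 89.3 at 24 h and 72 h, and had 51.7 and 41.3 with TNF. Since the rule sets the TNF means below the untreated means, a TNF median below that of NSPs was fixed by the choice of this class. At 1 week the median was 63.3. Another 52 members (4.43%, against 21.4% of the comparison set) were already lower than NSPs at both untreated times, with a median of 339 in NSPs, 194 at 24 h, 142 at 72 h and 99.0 at 1 week, and lower still with TNF, at 102 and 75.5. The remaining members were called against NSPs at 1 untreated time only. They were 85 that were higher at 24 h only (7.25%, against 3.70% of the comparison set), 68 higher at 72 h only (5.80%, against 7.81%), 7 lower at 24 h only (0.597%, against 5.16%) and 43 lower at 72 h only (3.67%, against 11.4%). Without NSP replicate 1, 175 members (14.9%, against 28.9%) were called at neither time and 47 (4.01%, against 21.4%) were lower at both.

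**Figure D3:**
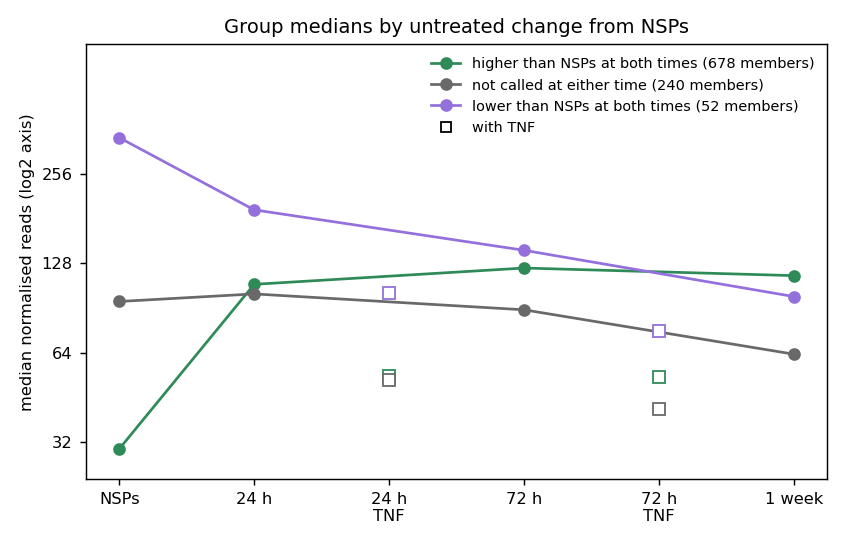
Median normalised reads (log2 axis) in each group for members called higher than NSPs at both untreated times (678), at neither time (240) and lower at both (52), with lines through the untreated groups and open squares for TNF. The squares lie below the untreated medians in each class, between NSPs and untreated cells in the class of 678 and below both NSPs and untreated cells in the other classes shown.

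The comparison of 1 week with NSPs used no library of the rule, so it was tested for each member. At 1 week, 649 members (55.3%) were higher than in NSPs and 238 (20.3%) were lower (limma-trend, adjusted p under 0.05 over all peaks tested). Of all peaks tested, 33.7% were higher and 33.6% lower, and in the comparison set 36.2% and 29.3%. These shares still depend on the rule, which favours peaks that opened by 24 h and 72 h, so their difference was not tested. Within each class of calls against NSPs, the share higher at 1 week was smaller among members than in the comparison set. It was 87.9% against 92.2% for peaks opened at both untreated times, and 4.58% against 23.9% for those called at neither. The members' median log2 difference was 0.79 and that of the comparison set 0.09. Every 1 week library lay above every NSP library at 552 members (47.1%), against 31.3% of all peaks tested and 33.3% of the comparison set, and below at 203 (17.3%), against 30.7% and 26.8%. Without NSP replicate 1, 715 were higher and 191 lower, against 34.6% and 33.6% of all peaks tested, and the median was 1.03. Between 72 h and 1 week, 97 members were called higher and 308 lower, against 22.5% and 16.2% of all peaks tested and 29.5% and 13.8% of the comparison set, in a contrast that shares the untreated 72 h libraries with the rule. The labels mark the libraries at 72 h and 1 week with a tag that those of NSPs and 24 h lack, and what it stands for cannot be told apart from time in this comparison. Of 212 peaks that held at most 3 reads in all tagged and at least 20 in all untagged libraries, 0 were members. The tagged libraries include the untreated ones at 72 h, where the rule set a minimum mean, so such peaks could not be members. Their absence was fixed by the rule and does not show whether the tag affected the members.

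The largest rise among members was inside Arpin, whose product inhibits the Arp2/3 complex that branches actin filaments (chr7:79929047-79929547). It had 7.01, 4.71 and 3.99 reads in NSPs and 1129, 1065, 1565 and 1065 at 1 week, a log2 difference of 7.61 ± 0.17 (SE) with an adjusted p of 3.67e-24 by limma-trend, and 7.80 without NSP replicate 1. On the way it had 203 ± 19.8 at 24 h and 531 ± 36.3 at 72 h, and 91.4 ± 8.15 and 162 ± 36.2 with TNF. The peaks near Spryd7 and Zfp521, a zinc finger transcription factor gene, and inside Ankrd52 took the same course, with log2 differences of 6.19, 6.00 and 4.98 between 1 week and NSPs, or 6.44, 6.08 and 5.21 without NSP replicate 1. In the Spryd7 peak the means were 8.24 in NSPs, 89.3 at 24 h, 217 at 72 h and 652 at 1 week, and 39.8 and 72.7 with TNF. These peaks were still opening after 72 h, and their levels with TNF at 72 h lay below the untreated levels at 24 h for Arpin and Spryd7, at 162 against 203 and 72.7 against 89.3, and not for Zfp521, at 196 against 194, or Ankrd52, at 397 against 392.

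The members that fell most lay at genes that include Sez6l and Car8, the gene of a carbonic anhydrase-like protein without enzymatic activity. The Car8 peak, 136 kb from the gene, had 1373, 1488 and 1753 reads in NSPs, 452, 620 and 336 at 24 h, 275, 213 and 246 at 72 h and 154, 117, 180 and 170 at 1 week. Its log2 difference at 1 week was −3.31 ± 0.16, with an adjusted p of 8.95e-17 by limma-trend, and −3.39 without NSP replicate 1. With TNF it had 280, 279 and 238 at 24 h and 107, 121 and 104 at 72 h, so the treated libraries lay below the untreated ones at both times. The Sez6l, Map3k1 and Myzap peaks had log2 differences of −3.81, −3.57 and −2.43 at 1 week, and −3.84, −3.50 and −2.33 without NSP replicate 1. At Sez6l the means went from 508 in NSPs to 270 at 24 h, 86.0 at 72 h and 35.8 at 1 week, with 145 and 48.3 under TNF.

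Peaks that TNF raised at both times, taken by the inverse ratio and the same minimum, numbered 1168 (2.02% of the comparison set). At 1 week 58.2% of these were higher than NSPs and 18.4% lower, shares close to those of the closed members. At 24 h without TNF, however, 41.6% of the raised peaks and 65% of the closed members were called higher than NSPs. The contrast shares its untreated libraries with both rules, so the second pair of shares was set by the choice of peaks at least in part and was not tested.

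In position the members were mostly distal. Of the 1140 members on chromosomes with start annotations, 15 (1.32%) had their centre within 1 kb of an annotated start of a protein-coding gene, against 18.1% of the comparison set and 12.6% of all peaks tested. Among the peaks that TNF raised the share was 2.03%, so a distal position was shared by both. The median distance to a start was 58.2 kb, against 29.6 kb in the comparison set, and 432 members (37.9%) lay over 100 kb away, against 25.0%. The starts cover 17492 of the 21900 protein-coding genes, so starts can be missed and distances can be too large. The Clvs1 peak, for instance, lay 62.7 kb from the gene but 4553 kb from the closest annotated start. Within 1 kb of a gene end, taken from all 21900 genes, lay 43 members (3.67%), against 20.6% of the comparison set. The share of peaks that were members was 0.149% within 1 kb of a start, 1.84% at 1 to 5 kb, 2.03% at 5 to 20 kb, 2.30% at 20 to 50 kb, 2.37% at 50 to 100 kb and 3.10% beyond. About as many lay inside gene bodies (630, 53.7%) as in the comparison set (55.1%). The gene table has no exons, so exons, introns and UTRs were not assigned. By chromosome the share of members ranged from 1.31% on X to 2.68% on 14.

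The 15 members at starts of protein-coding genes were named after their values were seen. They lay at Cmtm5, Bpifa5, Aldh1a1, Tmcc3, Osbp2, Gast, Ace, Glycam1, Tagln3, Paqr6, Cdcp2, Slc6a9, Gm30191, Pla2g2d and Tsc22d3. The peak at the start of Slc6a9, the glycine transporter GLYT1, had 1176, 1180 and 1185 reads in NSPs, 556, 646 and 484 at 24 h, 538, 475 and 521 at 72 h and 654, 631, 768 and 624 at 1 week. With TNF it had 349, 342 and 291 at 24 h and 285, 259 and 314 at 72 h. Thus its level was highest in NSPs and lowest with TNF, and at 1 week it differed from NSPs by −0.82 ± 0.11 (adjusted p of 2.55e-07, limma-trend). Cmtm5, the gene of a membrane protein of the MARVEL family, had means of 787 in NSPs, 521 at 24 h, 579 at 72 h and 526 at 1 week, and 289 and 294 with TNF. Its log2 difference at 1 week was −0.58 ± 0.12 (adjusted p of 7.14e-05, limma-trend). Without NSP replicate 1 the Slc6a9 and Cmtm5 differences were −0.83 and −0.55.

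At the Ace start peak, by contrast, at the gene of angiotensin-converting enzyme, the means were 62.0 in NSPs, 180 at 24 h, 266 at 72 h and 239 at 1 week, and 106 and 146 with TNF. Paqr6, a membrane progestin receptor gene, had 210 and 259 without and 84.5 and 68.9 with TNF. At the end of Ppm1m, a phosphatase gene, and 4.34 kb from the closest annotated start, the means were 513 and 445 without and 293 and 213 with TNF.

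**Figure D4:**
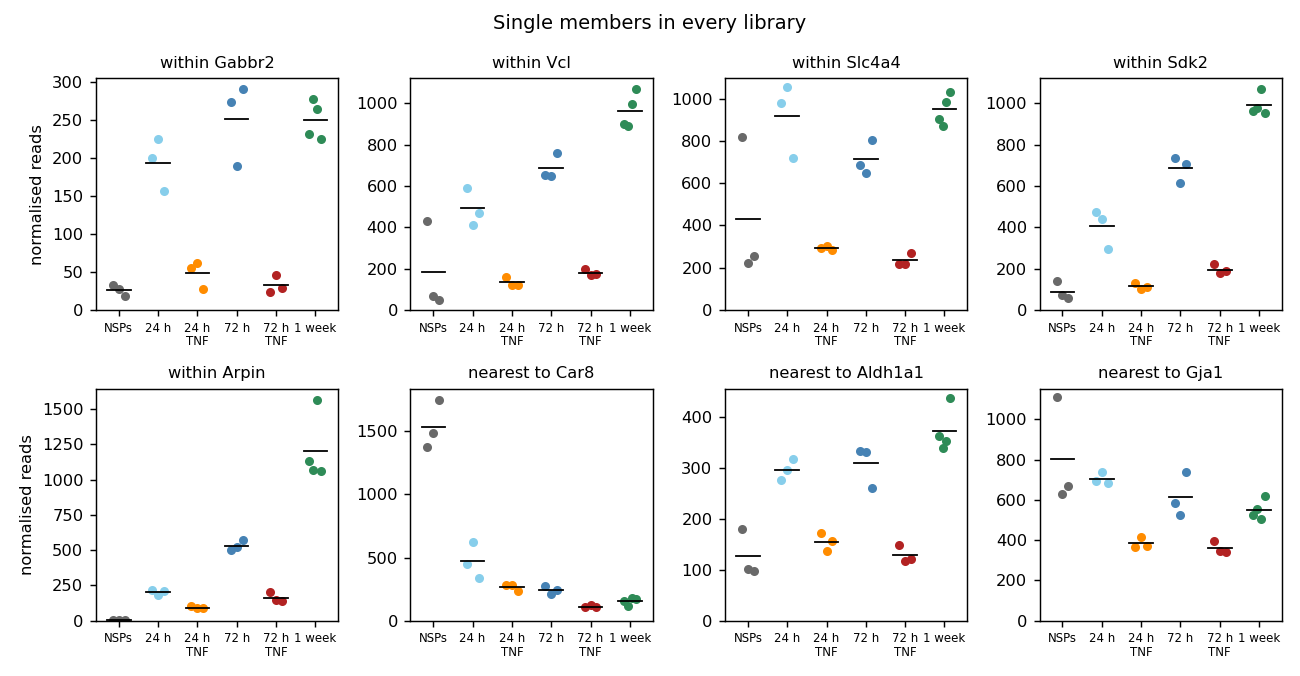
Normalised reads in every library (points) with group means (bars) for 8 members, each panel with its own axis from 0. Untreated and TNF-treated libraries do not overlap in any panel at either time. The untreated means rise at each step to 1 week at Vcl, Sdk2, Arpin and Aldh1a1 and fall at Car8 and Gja1. NSP replicate 1 is well above the other NSP libraries at Vcl, Slc4a4, Sdk2, Aldh1a1 and Gja1.

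Gene lists were read through the nearest protein-coding gene, which need not be the gene a region acts on. Astrocyte marker genes held 8 members among 129 peaks of the comparison set (6.2%, beside 2.03% overall), and 3 peaks of the list met the inverse rule. They lay at Gja1 (2 members), Slc4a4 (2), Gjb6, Gpld1, Slc1a2 and Slc1a3. Gja1 and Gjb6 encode the connexins 43 and 30 of astrocyte gap junctions, Slc1a2 and Slc1a3 the glutamate transporters GLT1 and GLAST, and Slc4a4 a sodium bicarbonate cotransporter.

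The stronger Slc4a4 peak, inside the gene (chr5:89171217-89171717), had 977, 1053 and 717 reads at 24 h and 293, 302 and 285 with TNF. At 72 h it had 687, 648 and 806 without and 217, 219 and 268 with TNF. The treated levels were close to NSP replicates 2 and 3, at 223 and 254, and the 1 week libraries held 870 to 1033. At 1 week the log2 difference from NSPs was 1.39 ± 0.24 (adjusted p of 8.71e-06, limma-trend) and 1.98 without NSP replicate 1.

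Around the glutamate transporters the members were weak. The Slc1a3 peak, outside the gene, had means of 7.68 in NSPs, 56.1 at 24 h, 76.2 at 72 h and 91.1 at 1 week, and 29.0 and 34.5 with TNF. The Slc1a2 peak, inside the gene, had 16.3, 67.1, 64.5 and 43.8, and 37.4 and 29.1 with TNF. For Gja1 a peak 452 kb away had 27.6 in NSPs, 141 at 24 h and 210.0 at 72 h, and 68.3 and 98.2 with TNF. Another, 503 kb away, was high in NSPs at 803 ± 268 and had 705 ± 27.7 at 24 h, 615 ± 111 at 72 h, and 384 ± 27.5 and 360 ± 28.6 with TNF. At 1 week this second peak was lower than in NSPs by 0.50 ± 0.14 on the log2 scale (adjusted p of 0.00316, limma-trend), a call that was lost without NSP replicate 1, with a difference of −0.24 and an adjusted p of 0.0686. Over the 8 members of the list, 5 were higher and 2 lower at 1 week than in NSPs, where 33.7% of all peaks tested were higher and 33.6% lower, and the lower call of Gja1 is the one lost without NSP replicate 1. The other lower call was inside Gpld1, with means of 595 in NSPs, 451 at 24 h, 479 at 72 h and 399 at 1 week. Its TNF means were 257 and 278. The log2 difference at 1 week was −0.57 ± 0.14 (adjusted p of 0.000537, limma-trend) and −0.49 without NSP replicate 1.

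Genes of gliogenic transcription factors held 7 members of 307 peaks (2.28%), at Id4 (2), Sox9 (2), Id2, Nfib and Nfix, while 9 peaks of the same list met the inverse rule. Both Sox9 members were far from the gene, at 239 and 438 kb, and nearly closed in NSPs, at 12.4 ± 3.20 and 16.3 ± 8.66. The closer one had 175 ± 22.3 at 24 h and 197 ± 44.4 at 72 h, and means of 105 and 102 with TNF. At 1 week it reached 362 ± 34.6, a log2 difference of 4.78 ± 0.19 from NSPs (adjusted p of 6.91e-19, limma-trend) and 4.96 without NSP replicate 1. The farther one had 75.8 and 258 without TNF, 38.3 and 131 with TNF, and 331 at 1 week.

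Neural progenitor genes held 1 member of 199 peaks (0.503%), inside Msi2, the gene of an RNA-binding protein of stem cells. At this gene of stem cells the peak was low in NSPs, at 18.1, 14.1 and 20.6 reads. It had 312, 224.2 and 286 at 24 h, 163, 171 and 156 with TNF, 283, 261 and 286 at 72 h and 145, 143 and 144 with TNF, and 279 ± 22.8 at 1 week.

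Genes of Notch and Wnt signalling held 8 members of 213 peaks (3.76%), and 3 peaks met the inverse rule. The members lay at Tcf7l2 (2), Fzd8, Hey2, Notch1, Notch3, Rspo2 and Sfrp1. The peak 51.1 kb from Hey2, a transcriptional effector of Notch, had 191, 204 and 182 reads at 24 h and 65.4, 90.5 and 105 with TNF. At 72 h it had 314, 317 and 292 without and 85.8, 84.2 and 70.8 with TNF, so the gap widened with time. In NSPs its mean was 45.3 ± 19.1 and at 1 week 327 ± 33.4, a log2 difference of 2.90 ± 0.19 (adjusted p of 7.94e-14, limma-trend) and 3.21 without NSP replicate 1. Inside Notch1, a receptor gene, the means were 123 in NSPs, 183 at 24 h, 146 at 72 h and 92.1 at 1 week, and 97.7 and 70.6 with TNF. The 1 week difference, −0.40 ± 0.18, did not pass the test (adjusted p of 0.0521, limma-trend), nor did that without NSP replicate 1 (−0.19).

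Cell junction and adhesion genes held 15 members of 453 peaks (3.31%), over 10 genes, with 3 each at Nlgn1 and Cdh4 and 2 at Ncam1, and 10 peaks of the list met the inverse rule. The peak near Nlgn1, which encodes a synaptic adhesion protein, had 299, 266 and 281 at 24 h and 153, 163 and 191 with TNF, and 296, 397 and 349 at 72 h and 195, 168 and 211 with TNF. The peak 35.9 kb from Cdh6, a cadherin gene, had 399 ± 54.0 and 270 ± 35.3 without and 229 ± 8.80 and 156 ± 27.7 with TNF. At 1 week both were higher than in NSPs, by 2.06 ± 0.16 and 0.96 ± 0.16 (adjusted p of 3.26e-12 and 4.34e-06, limma-trend), and by 2.28 and 0.74 without NSP replicate 1.

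Axon guidance genes held 8 members of 340 peaks (2.35%), of which 4 lay inside Sema6d, a transmembrane semaphorin gene. Their untreated means at 24 h were 86.3, 125, 155 and 253, and their TNF means 37.9, 68.8, 83.8 and 118. Only the middle pair, 3.93 kb apart, rose from 24 h to 72 h, to 215 and 381. At 1 week 3 of the 4 were higher than in NSPs, and the strongest at 24 h was not (−0.03 ± 0.20, adjusted p of 0.911, limma-trend), with the same calls without NSP replicate 1.

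Actin cytoskeleton genes held 2 members of 144 peaks (1.39%), while 9 peaks of the list met the inverse rule. The peak inside Vcl, which encodes the focal adhesion protein vinculin, was among the members that differed most. It had 591, 413 and 468 reads at 24 h and 157, 121 and 123 with TNF, and 654, 647 and 761 at 72 h and 200, 170 and 172 with TNF. At 1 week it had 888 to 1069, a log2 difference from NSPs of 3.06 ± 0.36 (adjusted p of 1.37e-08, limma-trend) and of 4.02 without NSP replicate 1. The peak near Fhl2, a LIM domain protein gene, stood at 108 in NSPs, 112 at 24 h, 108 at 72 h and 94.4 at 1 week, and at 39.4 and 32.3 with TNF.

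NF-κB and inflammatory genes held 1 member of 92 peaks (1.09%, beside 2.03% overall), and 16 of the 92 met the inverse rule. The member was inside Traf1, an adaptor of TNF receptor signalling and a known NF-κB target. It had 190, 121 and 188 reads at 24 h and 113, 77.6 and 92.4 with TNF, and 121, 152 and 119 at 72 h and 71.5, 76.9 and 76.8 with TNF, so it was lower with TNF while 16 peaks of the list were raised. AP-1 and immediate early genes held 2 members of 164 (1.22%) and 8 peaks of the inverse rule. One, 109 kb from Myc, had 14.6 ± 4.38 in NSPs, 111 ± 5.50 at 24 h, 234 ± 14.4 at 72 h and 293 ± 17.8 at 1 week, and 43.4 ± 3.78 and 73.0 ± 16.9 with TNF. The other, 145 kb from Nr4a3, had 272 and 311 without and 151 and 136 with TNF.

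The other lists held few members. Extracellular matrix genes held 4 of 155 (2.58%), at Col12a1 (2), Col4a2 and Tnc, with 11 peaks of the inverse rule. TGF-β and BMP signalling held 2 of 197 (1.02%), at Ski, a repressor of Smad proteins, and Bmp7, a ligand. The Bmp7 peak had 141 ± 25.4 in NSPs, 72.5 ± 6.72 at 24 h and 34.0 ± 9.74 at 1 week, and 37.5 ± 10.3 and 25.7 ± 13.2 with TNF at 24 h and 72 h. At 1 week it was lower than in NSPs by 2.05 ± 0.30 on the log2 scale (adjusted p of 6.16e-07, limma-trend), and by 2.12 without NSP replicate 1. EGF and FGF receptor and feedback genes held 1 of 149 (0.671%), near Fgfr2, and TEAD and YAP genes held 0 of 111. None of the lists was tested, since lists and members were chosen with results of these data known.

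The members were nearest to 1012 genes, of which 126 held 2 or more and 31 held 3 or more. Immp2l, Grin2b, Bmper and Sema6d held 4 each, and Grik2 held 3 of its 7 peaks of the comparison set. Grin2b, Grik2 and Gabbr2, with 4, 3 and 3 members, encode neurotransmitter receptors, and peaks of Grin2b and Grik2 are described for that reason, after their values were seen. Grin2b is a subunit of the NMDA-type and Grik2 of the kainate-type glutamate receptor, and Gabbr2 of the GABA-B receptor.

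All 4 Grin2b members were inside the gene. Their means at 24 h were 127, 65.9, 58.1 and 123.97 without and 47.5, 31.4, 31.5 and 69.1 with TNF, and at 72 h 164, 116, 66.8 and 123 without and 41.7, 43.2, 33.2 and 66.7 with TNF. At 1 week the first and the last were higher than in NSPs, by 2.28 ± 0.31 and 4.12 ± 0.21 on the log2 scale (limma-trend). The second did not pass the test (0.15 ± 0.25). The third was lower, with a log2 difference of −0.97 ± 0.38 and an adjusted p of 0.0259 by limma-trend, a call that was lost without NSP replicate 1, where the difference was −0.17 with an adjusted p of 0.657. Without that library the first, second and last differed from NSPs by 2.87, 0.38 and 3.83, with the same calls.

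At Grik2 a pair of its members lay 0.35 kb from one end of the gene and just inside it, on a stretch of 1.09 kb (chr10:49789673-49790761). The inner one had 28.7 ± 0.83 in NSPs, 76.4 ± 29.6 at 24 h, 123.7 ± 13.3 at 72 h and 87.3 ± 14.4 at 1 week, and 39.4 ± 4.52 and 41.7 ± 16.9 with TNF. The outer one had 160 ± 55.9, 280 ± 7.87, 170 ± 28.4 and 69.1 ± 14.0, and 133 ± 28.4 and 73.4 ± 20.0 with TNF. At 1 week the inner peak was higher than in NSPs, by 1.55 ± 0.26, and the outer one lower, by −1.15 ± 0.22 (adjusted p of 5.82e-06 and 4.24e-05, limma-trend). Both calls held without NSP replicate 1, with log2 differences of 1.56 and −1.47. Near Bmper, the gene of a secreted BMP regulator, 3 of 4 members were higher at 1 week. The fourth was lower by a log2 difference of −0.67 ± 0.21 (adjusted p of 0.00617, limma-trend), which did not pass the test without NSP replicate 1 (−0.45, adjusted p of 0.0752, limma-trend).

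With gaps of at most 20 kb between members there were 34 runs, which held 69 members (5.88%), and 1 run held 3. It spanned 27.6 kb inside Sdk2, the gene of a synaptic adhesion protein (chr11:113791808-113819435). The middle peak had 475, 441 and 296 reads at 24 h and 128, 99.1 and 113 with TNF, and 733, 616 and 707 at 72 h and 221, 179 and 186 with TNF. It reached 952 to 1069 at 1 week, with a log2 difference from NSPs of 3.58 ± 0.20 (adjusted p of 9.46e-16, limma-trend). The flanking members were open in NSPs, at 257 and 266, and had 164 and 207 at 24 h, 317 and 243 at 72 h, 88.1 and 106 with TNF at 24 h and 115 and 127 with TNF at 72 h. At 1 week one was lower than in NSPs, by −0.78 ± 0.15, and the other did not pass the test (−0.16 ± 0.16). Without NSP replicate 1 the middle difference was 3.96 and the others −0.76 and −0.08, with the same calls.

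Other peaks next to members were also lower with TNF, by less. Among the other peaks within 2 kb of a member, the median log2 change with TNF was −0.20 at 24 h and −0.34 at 72 h, and 10.7% and 19.6% were called lower. At 2 to 5 kb the medians were −0.14 and −0.18, and at 5 to 10 kb −0.08 and −0.11. At 200 to 500 kb they were −0.01 and 0.04, and 2.20% and 4.41% were called lower. The members' own values were not used here, but the neighbours were measured in the libraries of the rule, so this gradient is a description.

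**Figure D5:**
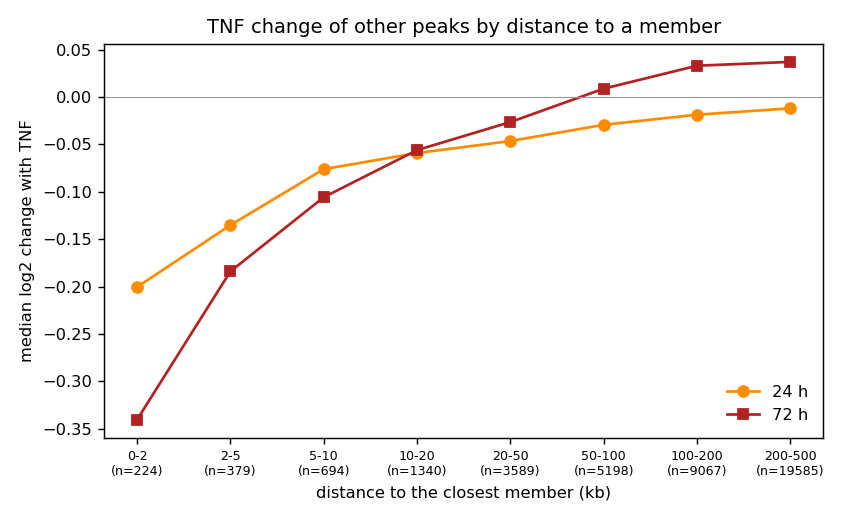
Median log2 change with TNF (y axis) of peaks that were no members, by distance to the closest member (x axis, kb, with the number of peaks), at 24 h (circles) and 72 h (squares). Both curves are lowest within 2 kb, at −0.20 and −0.34, and approach 0 with distance.

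Markers of cell types were read at peaks within 1 kb of a start. For astrocytes 5 of 8 markers had such a peak, and none of these was a member. Their summed level was 1195 to 1360 at 24 h and 951 to 1101 with TNF, and 1303 to 1372 at 72 h and 902 to 925 with TNF, so the ranges did not overlap. Of the 5 markers, Gfap and S100b made up most of the difference, with means of 489 and 372 at 24 h and 369 and 288 with TNF. Slc1a3 went the other way at 24 h, with 189 without and 217 with TNF. Neural progenitor markers (4 of 6) had 1453 to 1729 and 1503 to 1605 at 24 h, and 1503 to 1810 and 1724 to 1818 at 72 h, and the ranges overlapped. Neuronal markers (4 of 8) had 1536 to 1651 and 1425 to 1551 at 24 h, and 1302 to 1352 and 1302 to 1558 at 72 h. Markers of the oligodendrocyte lineage (3 of 8) had 1063 to 1102 and 943 to 1062 at 24 h, which did not overlap, and 742 to 906 and 864 to 1029 at 72 h, which did. Endothelial and mural markers (2 of 8) overlapped between groups at both times. Of 8 microglial and macrophage markers only P2ry12 had a peak, at 45.7 to 64.9 and 32.3 to 60.2 at 24 h and 53.8 to 67.6 and 35.5 to 50.4 at 72 h. The part of a change in cell composition in the members' levels was not tested.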

How the data were processed

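ATAC-seq was performed on 19 libraries of mouse NSPs and differentiating cells, grouped by sample title. According to the methods and the submitters' processing notes, the authors used Trim Galore for trimming, Bowtie2 for alignment to mm10, SAMtools for handling alignments and MACS2 for peaks. Tool versions, the shift for transposase cuts and the treatment of duplicates are not given in the sources used here. The deposited table holds a normalised signal per peak and library, and most peaks (89898) span 500 bp. In each library 100% of values were whole multiples (tolerance 0.01) of the lowest value, so reads divided by a size factor were recovered.

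Group means of the deposited values gave the members. For tests, log2(value + 1) was fitted with limma-trend (limma 3.58.1, R 4.3.3) over all 19 libraries with 6 group means and no covariate, so fold changes of low peaks are understated. The filter was filterByExpr of edgeR 4.0.16 with a minimum count of 10, which left out 1235 peaks and no member. Two-sided p-values received the Benjamini-Hochberg correction across 88919 peaks. This replaced the count test because the values were normalised. The procedure was tested on simulated data. Alternatives used total-read scaling, loess offsets, edgeR with TMM, DESeq2 1.42.0, a pseudocount of 5, no filter, only the groups compared, a replicate block, other thresholds of the rule and each library left out.

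Members, gene lists and markers were chosen with earlier results of these data known. Named peaks were the 6 members with the lowest ratios and the 6 with the highest untreated level, the 4 in each direction with the smallest p at 1 week, 2 for each gene list, 4 at gene ends, the densest 2 runs and those next to a threshold. Of these, 2 peaks are not reported here. Genes were the nearest protein-coding gene (of 21900) of RefSeq GRCm38.p6, and starts came from its promoter windows, which cover 17492 genes and none on chromosome 18, where 33 members lie. Peak coordinates are as deposited. No genome was used, so the planned motif search over peaks was limited to promoter windows.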

Additional observations from a re-analysis of the deposited data

Results flagged for a closer look

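Groups of 4 libraries were examined for a library far from the others by Dixon's ratio, the gap to the nearest library over the range. Of 66 such values, all from the 1 week libraries, 2 exceeded the critical value at 95%, and chance alone flags about 1 in 20. In the peak inside Arpin the ratio was 0.871, since replicate 3 had 1565 reads against 1065 to 1129 in the others. In the peak at the start of Cmtm5 it was 0.886, since replicate 4 had 476 against 538 to 546. Without that replicate, the Arpin and Cmtm5 differences from NSPs at 1 week kept their direction.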

How the results depend on the processing

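The number of members depended mainly on the limits of the rule. It was 332 with a ratio of at most 0.5, 3050 with at most 0.7 and 549 with a minimum of 100 reads. With a minimum of 30 it was 1571, with total-read scaling 1462, of which 1120 were shared, with TMM 1388 and with group medians 1264, of which 922 were shared. Leaving out 1 library gave 1131 to 1291.

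At 1 week, members higher than NSPs numbered 590 to 715 and members lower 191 to 266 over all alternatives, and 591 to 715 and 191 to 255 when a library was left out. Members called lower with TNF numbered 560 to 708 at 24 h and 732 to 815 at 72 h when a library was left out, with 560 without 24 h replicate 1 and 561 without 24 h TNF replicate 3, where fewer libraries were fitted. None of the described members had a called difference that changed direction under these alternatives. The call of the Ski peak at 1 week (log2 difference 0.48, adjusted p of 0.00619 by limma-trend) was also lost without NSP replicate 1 (0.25, adjusted p of 0.0972).

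Whether replicates of different groups are paired is not settled by the replicate numbers of the titles. Correlations of same-numbered deviations were 0.03 to 0.11 at 24 h, −0.03 to 0.02 at 72 h and 0.01 to 0.04 between NSPs and 1 week. At 72 h the descriptions number the untreated libraries A1 to A3 and the TNF libraries A2 to A4. Matched by these numbers, A2 and A3 had correlations of 0.03 and 0.02. With a replicate block by title number, 644 members were higher and 233 lower at 1 week, and 864 and 971 were lower with TNF. The block fitted on only the groups compared, chosen after the data were seen, gave 590, 203, 1132 and 1122. The fits without NSP replicate 1 for the other comparisons with NSPs were also chosen after the data were seen.

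Depth limits weak members. The fewest reads behind a member were 15 in an untreated library and 3 in a TNF library, and p-values cover the spread between these libraries only.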
